A study of Mus musculus with 32 samples.

Results

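Vsig4, Cxcl13, Cd207 and Clec10a are 4 immune genes selected on their split between the 2 atria of a mouse heart. They were chosen by the difference between each animal's array with high Bmp10 and its array with low Bmp10, with a limit of 9 log2 between high and low. They are 4 of 19938 named genes on the array, and of 15219 that were bright enough to be tested. Each was read by 1 probe set, and all 4 passed the filter on dim genes, a mean signal of at least 4.48 log2. The working name of the set was chamber-sided myeloid genes. That name carries no direction: all 4 genes split in 16 of 16 animals, but Clec10a went the opposite way to the other 3. No general macrophage marker tested split by 1 log2 or more, though the mean of that list was higher in the Bmp10-high array of 14 of 16 animals.

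Both atria of 16 mice were read on Affymetrix Mouse Gene 1.0 ST arrays, 32 in all with 1 per atrium, and each of 4 genotypes had 4 animals. These were Mst1 transgenic mice, mice with a dominant negative PI3K (dnPI3K), mice with both (dnPI3K-Mst1) and controls with no transgene (Ntg). All had mixed C57BL/6 and FVB/N strain background and ate standard chow, and no drug or other agent is named. PI3K is a kinase of growth factor signalling and Mst1, the product of Stk4, a kinase of the Hippo pathway. Age, sex, the promoter of each transgene and the number of founder lines are not given in the sources used here. Whole atria were homogenised, so each array holds myocytes, vessels, connective tissue and immune cells together. In such bulk samples, fewer cells of a type and less RNA per cell cannot be told apart.

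Stk4 averaged 8.25 ± 0.09 log2 in Mst1 animals and 8.33 ± 0.11 in dnPI3K-Mst1 animals, against 7.61 ± 0.13 in dnPI3K animals and 7.54 ± 0.11 in Ntg animals (SD, n = 4 each). Array medians lay between 5.51 and 5.68 log2. A mean correlation with the other arrays under 0.97 was found for 4 arrays, all of them Bmp10-high, from Mst1 1466, dnPI3K 1507, dnPI3K 3241 and Ntg 1662. The number of animals limits the precision throughout.

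Bmp10 encodes a growth factor of the myocardium that in adult mouse atria is known from the right side. Its signal ran from 11.42 to 12.77 log2 in 16 arrays and from 3.77 to 6.64 log2 in the other 16, and every animal had 1 array of each kind. The array just above the limit was Mst1 1466 at 11.42, and the one just below it Mst1 1839 at 6.64. The sides in the labels ran against this: the Bmp10-high array was labelled left in 13 animals and right in 3. It was labelled left in 3 of 4 Mst1 animals, 4 of 4 dnPI3K animals, 4 of 4 dnPI3K-Mst1 animals and 2 of 4 Ntg animals. Arrays are therefore called Bmp10-high and Bmp10-low here, with no side. Taken by the labels, right minus left, the mean differences over 16 animals were -2.63 log2 for Vsig4, -2.59 for Cxcl13, -2.02 for Cd207 and 0.72 for Clec10a. These carry the opposite sign to the differences given below and are smaller.

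Vsig4, also called CRIg, is a complement receptor that binds fragments of C3 on tissue macrophages such as the Kupffer cells of the liver. Cxcl13 is a chemokine that draws B cells through its receptor Cxcr5 and helps to build lymphoid follicles. Cd207, or langerin, is a C-type lectin that takes up pathogens and forms the Birbeck granules of Langerhans cells. Clec10a is a lectin for galactose and related sugars on macrophages and dendritic cells. Resident macrophages of the heart and dendritic cells differ in the receptors and chemokines they carry, and these genes are read as marks of such states.

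Vsig4 lies at X:96247201-96293438, Cxcl13 at 5:95956939-95961068, Cd207 at 6:83671207-83677857 and Clec10a at 11:70166623-70170836 in RefSeq's GRCm38.p6. The 3 genes that were high together share no chromosome. Their promoters are shown because all 3 were high in Bmp10-high arrays, the contrast that chose them. Each is the 250 bases before the start, 5′ to 3′ on the gene's own strand, from RefSeq's table of the same build. Capitals mark GAGGAA on either strand, a core bound by the myeloid factor PU.1, and the TATA box letters TATAAA.
Vsig4, chrX:96293439-96293688, minus strand: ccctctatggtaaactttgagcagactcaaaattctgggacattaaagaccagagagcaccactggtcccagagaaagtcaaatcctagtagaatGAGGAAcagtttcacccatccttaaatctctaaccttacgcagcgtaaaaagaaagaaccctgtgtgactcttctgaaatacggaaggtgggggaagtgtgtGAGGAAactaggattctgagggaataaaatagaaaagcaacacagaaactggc
Cxcl13, chr5:95956689-95956938, plus strand: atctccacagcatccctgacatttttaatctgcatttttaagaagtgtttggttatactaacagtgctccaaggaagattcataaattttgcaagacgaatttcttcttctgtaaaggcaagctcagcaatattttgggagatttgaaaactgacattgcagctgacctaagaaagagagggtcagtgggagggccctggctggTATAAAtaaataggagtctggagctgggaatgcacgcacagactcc
Cd207, chr6:83677858-83678107, minus strand: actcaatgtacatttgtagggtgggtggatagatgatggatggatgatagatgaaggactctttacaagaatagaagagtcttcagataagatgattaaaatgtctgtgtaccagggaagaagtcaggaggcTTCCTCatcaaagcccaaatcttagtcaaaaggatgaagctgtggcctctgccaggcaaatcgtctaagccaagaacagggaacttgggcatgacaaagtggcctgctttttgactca
GAGGAA stood at -155 and -53 in Vsig4 and, on the reverse strand, at -118 in Cd207, counted from the start. It was not among the letters of the Cxcl13 window. Of 32851 windows of the same length in the table, 23.3% held it on either strand. TATAAA stood at -46 in Cxcl13, and 12.4% of windows held it. Of the other motifs searched on both strands, AGATAA, a core bound by factors of the GATA family, stood at -166 in Cd207 and in 9.99% of windows. TGANTCA, the letters of AP-1 sites, stood at -7 in Cd207 and in 6.75% of windows. No hit overlapped another. None of these motifs was in all 3 windows, and a match is a description of letters only.

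Vsig4, Cxcl13 and Cd207 were far higher in the Bmp10-high array than in the Bmp10-low array of every animal, by 16-fold, 17.4-fold and 10.4-fold on average. Clec10a was lower in the Bmp10-high array of every animal, by 2.31-fold on average. These differences chose the genes, so they are described here and not tested.

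**Figure D1:**
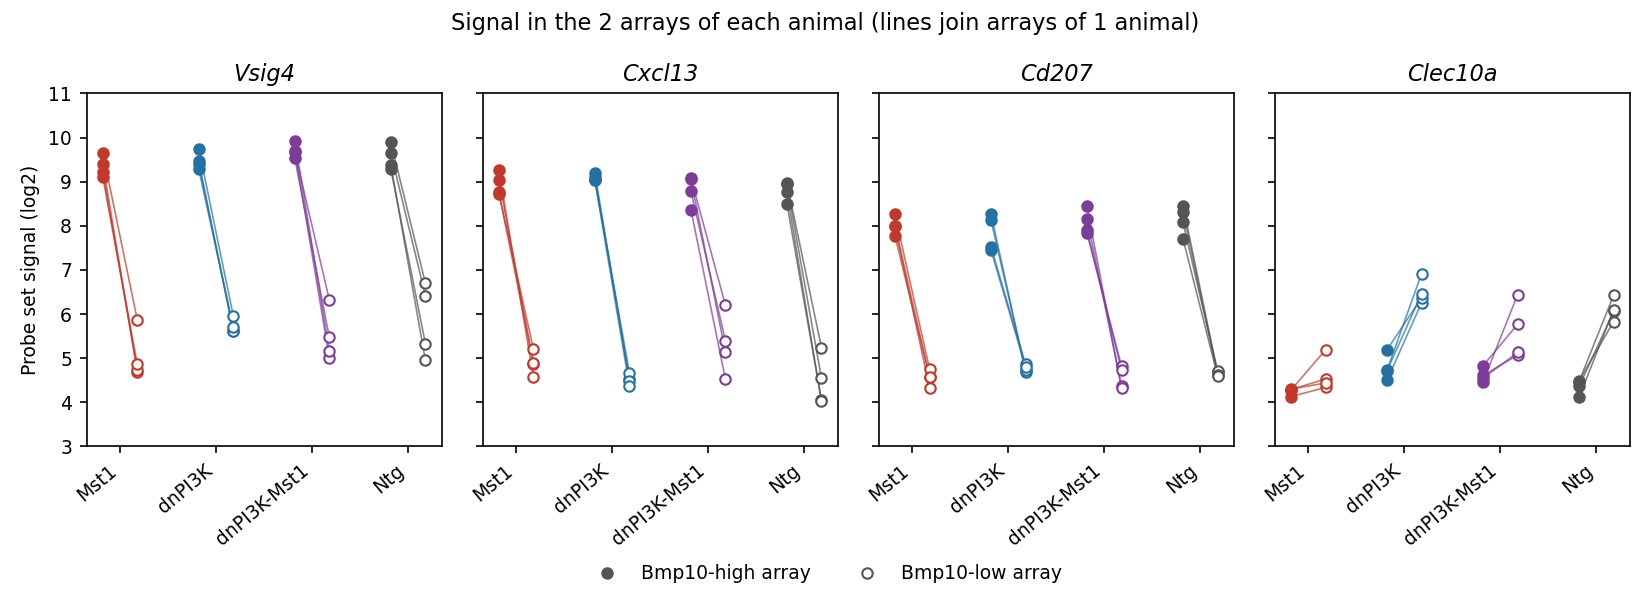
Probe set signal (log2) of Vsig4, Cxcl13, Cd207 and Clec10a in the Bmp10-high array (filled) and Bmp10-low array (open) of each of 16 animals, by genotype, with lines joining the arrays of 1 animal. The Bmp10-high arrays lie above all Bmp10-low arrays for Vsig4, Cxcl13 and Cd207, and the lines of Clec10a run the other way.

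Vsig4 read 9.66, 9.41, 9.22 and 9.11 log2 in the Bmp10-high arrays of Mst1 1466, 1838, 1839 and 1840, against 5.86, 4.69, 4.73 and 4.86 in their Bmp10-low arrays. In dnPI3K 1507, 1648, 1660 and 3241 it read 9.75, 9.40, 9.46 and 9.28 in Bmp10-high arrays, against 5.95, 5.62, 5.61 and 5.70 in Bmp10-low arrays. In both genotypes the lowest high array stood more than 3 log2 above the highest low one. In dnPI3K-Mst1 1509, 1647, 1649 and 1650 Vsig4 read 9.67, 9.69, 9.93 and 9.53 in Bmp10-high arrays, against 6.32, 5.01, 5.17 and 5.47 in Bmp10-low arrays. In Ntg 1301, 1657, 1662 and 1834 it read 9.90, 9.38, 9.65 and 9.29, against 6.70, 4.95, 6.42 and 5.33. The Ntg pair labelled the other way round, 1301 and 1662, had the highest low arrays of the gene. Over 16 animals Vsig4 averaged 9.52 ± 0.24 log2 in Bmp10-high arrays and 5.52 ± 0.62 in Bmp10-low arrays, a within-animal difference of 4.0 ± 0.52 (SD). The difference averaged 4.32 ± 0.40 in Mst1, 3.75 ± 0.12 in dnPI3K, 4.22 ± 0.66 in dnPI3K-Mst1 and 3.70 ± 0.60 in Ntg animals (SD, n = 4 each). Animals differed more in their low arrays, from 4.69 to 6.70, than in their high arrays, from 9.11 to 9.93.

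Cxcl13 read 9.26, 8.76, 9.05 and 8.73 log2 in the Bmp10-high arrays of the Mst1 animals in the same order, against 4.57, 4.88, 4.89 and 5.21 in their Bmp10-low arrays. In the dnPI3K animals it read 9.11, 9.04, 9.19 and 9.03 in Bmp10-high arrays, against 4.52, 4.67, 4.49 and 4.37 in Bmp10-low arrays. The dnPI3K animals were the most alike, with differences from 4.37 to 4.71. In the dnPI3K-Mst1 animals Cxcl13 read 9.09, 8.37, 9.06 and 8.79 in Bmp10-high arrays, against 6.20, 4.52, 5.14 and 5.40 in Bmp10-low arrays. In the Ntg animals it read 8.98, 8.50, 8.94 and 8.76, against 5.24, 4.05, 4.55 and 4.02. The low array of dnPI3K-Mst1 1509, at 6.20, was the highest of the 16 and gave the smallest difference, 2.89. Over 16 animals the gene averaged 8.92 ± 0.25 in Bmp10-high arrays and 4.80 ± 0.55 in Bmp10-low arrays, a difference of 4.12 ± 0.55 (SD). By genotype this was 4.06 ± 0.49 in Mst1, 4.58 ± 0.15 in dnPI3K, 3.52 ± 0.48 in dnPI3K-Mst1 and 4.33 ± 0.42 in Ntg animals (SD, n = 4 each). The smallest mean difference was that of dnPI3K-Mst1, and its range of 2.89 to 3.92 overlapped that of Ntg, 3.74 to 4.73.

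Cd207 read 7.77, 8.26, 8.0 and 7.99 log2 in the Bmp10-high arrays of the Mst1 animals, against 4.58, 4.76, 4.58 and 4.33 in their Bmp10-low arrays. In the dnPI3K animals it read 8.28, 7.53, 8.13 and 7.45 in Bmp10-high arrays, against 4.68, 4.86, 4.74 and 4.80 in Bmp10-low arrays. Here 1648 and 3241 had the lowest high arrays of all 16 and the smallest differences, 2.67 and 2.65. In the dnPI3K-Mst1 animals Cd207 read 8.16, 7.83, 8.44 and 7.90 in Bmp10-high arrays, against 4.36, 4.82, 4.32 and 4.73 in Bmp10-low arrays. In the Ntg animals it read 8.46, 8.08, 8.32 and 7.71, against 4.68, 4.71, 4.63 and 4.60. Its low arrays spanned only 4.32 to 4.86. Over 16 animals Cd207 averaged 8.02 ± 0.31 in Bmp10-high arrays and 4.64 ± 0.17 in Bmp10-low arrays, a difference of 3.38 ± 0.41 (SD). The means by genotype were 3.44 ± 0.19 in Mst1, 3.08 ± 0.49 in dnPI3K, 3.53 ± 0.52 in dnPI3K-Mst1 and 3.49 ± 0.31 in Ntg animals (SD, n = 4 each). The low arrays of Cd207 and Cxcl13 stood close to 4.48 log2, a level that 30% of all probe sets do not reach and where signals hold background. Their folds are therefore ratios of signal and not of transcript number.

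Clec10a read 4.28, 4.13, 4.29 and 4.30 log2 in the Bmp10-high arrays of the Mst1 animals, against 5.19, 4.34, 4.53 and 4.44 in their Bmp10-low arrays. In the dnPI3K animals it read 4.73, 4.50, 5.19 and 4.72 in Bmp10-high arrays, against 6.92, 6.26, 6.37 and 6.46 in Bmp10-low arrays. The Bmp10-low arrays stood at 5.19 or below in Mst1 animals and at 6.26 or above in dnPI3K animals. The Bmp10-high arrays of both genotypes stood at 5.19 or below. The share of all genes whose Bmp10-low arrays part in this way was not counted. In the dnPI3K-Mst1 animals Clec10a read 4.83, 4.47, 4.61 and 4.55 in Bmp10-high arrays, against 5.77, 6.44, 5.07 and 5.13 in Bmp10-low arrays. In the Ntg animals it read 4.47, 4.49, 4.36 and 4.11, against 6.43, 5.83, 6.06 and 6.10. The dnPI3K-Mst1 animals were uneven, with the Bmp10-low array of 1647 level with the highest of Ntg and the other 3 below all those of Ntg. Over 16 animals Clec10a averaged 4.50 ± 0.28 in Bmp10-high arrays and 5.71 ± 0.82 in Bmp10-low arrays, a difference of -1.21 ± 0.72 (SD). It was -0.37 ± 0.36 in Mst1, -1.72 ± 0.42 in dnPI3K, -0.99 ± 0.68 in dnPI3K-Mst1 and -1.75 ± 0.30 in Ntg animals (SD, n = 4 each). The sign was the same in 16 of 16 animals, but across animals the arrays overlapped. The Bmp10-high arrays of Clec10a averaged close to 4.48 log2, so its fold is also a ratio of signal.

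Among 15219 genes ordered by mean within-animal difference, Bmp10 ranked 1 at 7.57 log2, Cxcl13 ranked 2, Vsig4 3 and Cd207 4. Clec10a ranked 9 from the lowest. The median difference over all genes was -0.020 log2 and the median size 0.054. Only 7 genes differed by 2 log2 or more upward and 1 downward. Being higher in the Bmp10-high array of all 16 animals was found for 0.407% of genes, and being lower in all 16 for 0.749%. All Bmp10-high arrays lay above all Bmp10-low arrays for 7 genes, 0.0460% of those tested. These were Bmp10, Vsig4, Cxcl13, Cd207, A2m, Adh6b and Gsg1l. The rule chose the genes by this contrast, and nothing is read from these shares.

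**Figure D2:**
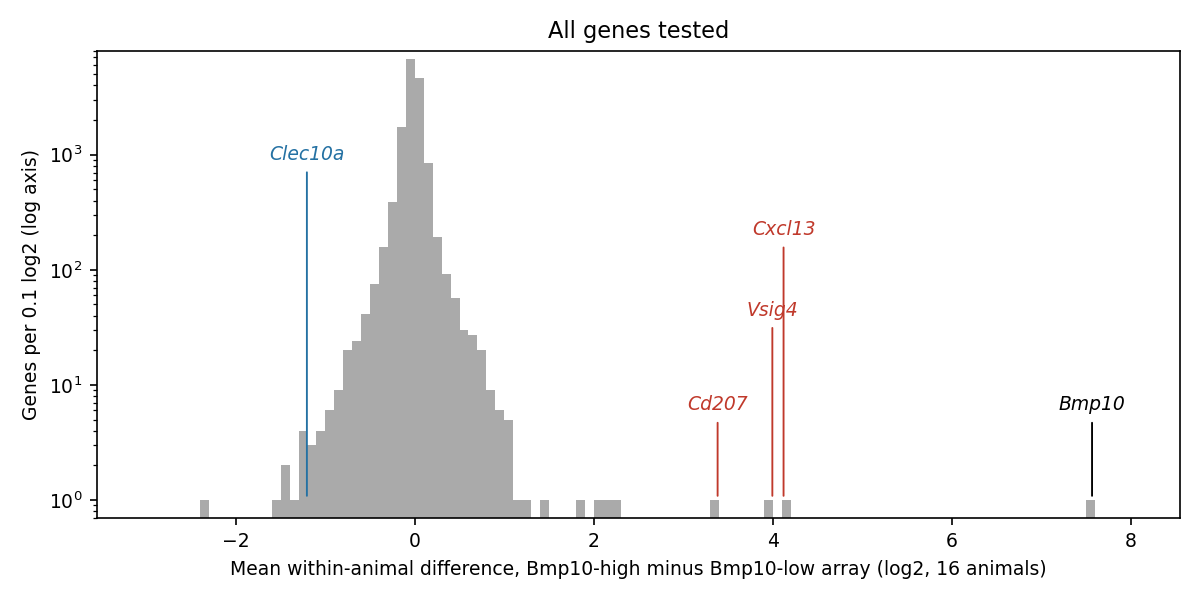
Number of genes (log axis) by mean within-animal difference, Bmp10-high minus Bmp10-low array (log2, 16 animals), for the 15219 genes tested. Most genes lie near 0, with Cxcl13 (4.12), Vsig4 (4.0) and Cd207 (3.38) far to the right, Bmp10 (7.57) beyond them and Clec10a (-1.21) in the left tail.

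Myeloid cell markers were set beside the 4 genes to see whether the cells that carry them also split. Of the 19 general macrophage markers tested, none differed by 1 log2 or more, and their median was 0.24, from -0.25 to 0.68. Csf1r, the receptor for the macrophage growth factor CSF1, ran from 8.61 to 9.27 log2 in Bmp10-high arrays and from 7.56 to 9.53 in Bmp10-low arrays, with a mean difference of 0.63, and was higher in the Bmp10-high array of 15 of 16 animals. Adgre1, an adhesion receptor that marks mouse macrophages, ran from 6.90 to 7.85 in Bmp10-high arrays and from 6.44 to 8.51 in Bmp10-low arrays (0.34), likewise higher in 15 of 16 animals. The mean level of the 19 markers was 7.19 to 7.67 in Bmp10-high arrays and 6.89 to 8.55 in Bmp10-low arrays. The ranges overlapped, but within animals the list's mean was higher in the Bmp10-high array in 14 of 16, all but Mst1 1466 and dnPI3K-Mst1 1647.

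The 15 tissue-resident macrophage markers went both ways, with a median of -0.12. Timd4, a receptor for dying cells, was higher in the Bmp10-high array of all 16 animals (0.65). Cd163, the receptor for haemoglobin with haptoglobin, was higher in 15 of 16 (0.73). F13a1, a clotting factor subunit made by macrophages, was lower in all 16 (-0.92), as were Cbr2 (-0.61) and the mannose receptor gene Mrc1 (-0.54). In the serosal cavity macrophage list of 8 tested genes the median was 0.05, with Prg4, which encodes the lubricant lubricin, lower in all 16 animals (-1.44). Gata6, the factor of peritoneal macrophages that also serves in the heart, read 9.20 log2 on average with a difference of -0.09.

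Langerhans and dendritic cell markers showed no split like that of Cd207. The 15 tested members of that list had a median of 0.03 and a range of -1.21 to 0.22. Epcam, carried by Langerhans cells, ran from 4.37 to 5.06 log2 in Bmp10-high arrays and from 4.47 to 4.89 in Bmp10-low arrays (-0.03). Itgax, which encodes CD11c, had a mean difference of 0.16. Both were dim, at 4.64 log2 on average for Epcam and 4.78 for Itgax, close to the filter's 4.48. A split is hard to see in such dim markers, so their small differences do not show how the cells themselves split. Mgl2, with -1.21, was the exception and went with Clec10a. The 5 tested B cell markers had a median of 0.07, and the receptor of Cxcl13, Cxcr5, was under the filter at 3.46 log2 on average. The medians of the monocyte (0.06), neutrophil (0.02), T and NK cell (0.16) and mast cell (0.15) markers were small as well. Of those measured, only 4 of 10 neutrophil, 5 of 10 B cell and 6 of 12 T and NK cell markers passed the filter on dim genes. Their medians have the same limit.

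By the families the 4 genes belong to, the picture was similar. The 28 other C-type lectins tested had a median of 0.02. The highest of them were Clec4d (0.75) and Clec4f (0.65), and Clec4f, a receptor of Kupffer cells, was higher in all 16 animals. The 21 other chemokine ligands had a median of 0.02, with Ccl6 at 0.75 and Ccl11 at -0.91. Cxcl12 (-0.48) and Cxcl14 (-0.64) were lower in all 16 animals, opposite to Cxcl13. The 21 complement genes and receptors had a median of 0.13, with C7 (-0.91), Masp1 (-0.82) and Cd55 (-0.79) lower in all 16. The 10 genes of the B7 family and related receptors, to which Vsig4 is kin, had a median of -0.01.

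**Figure D3:**
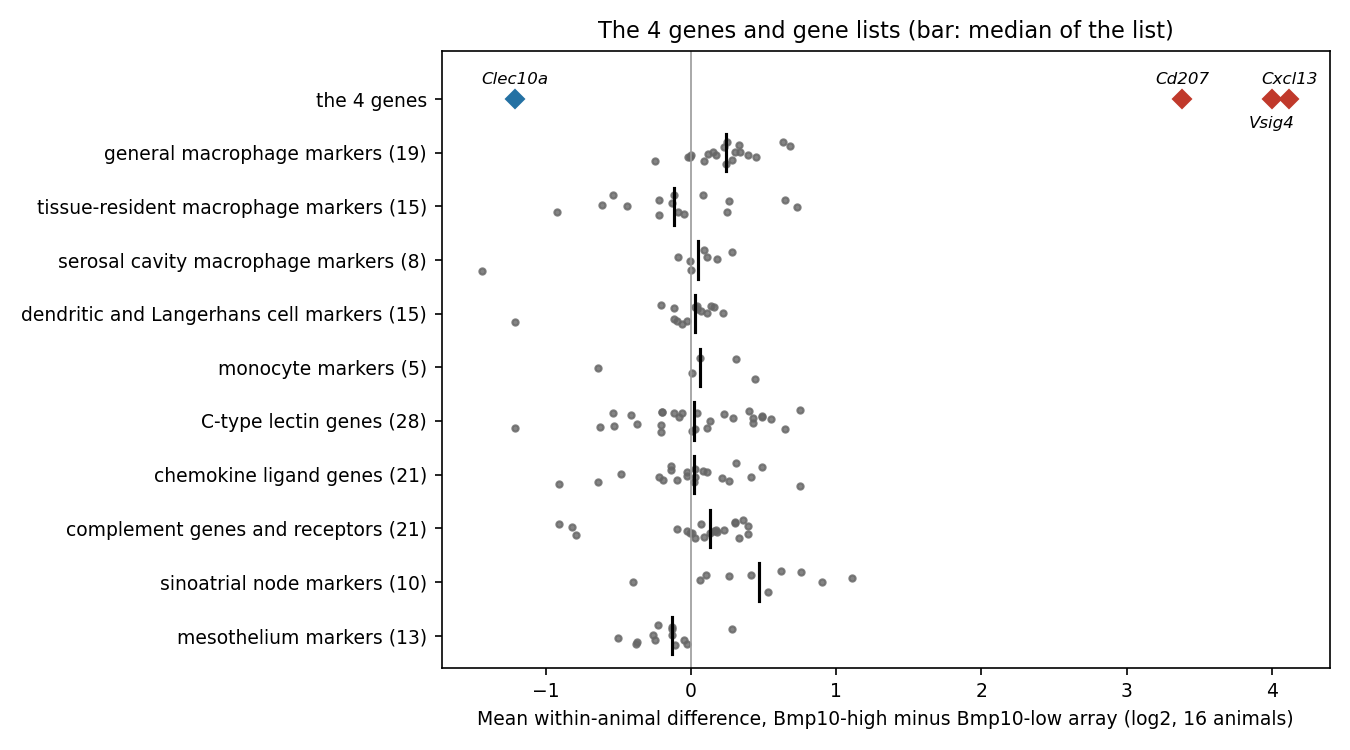
Mean within-animal difference, Bmp10-high minus Bmp10-low array (log2, 16 animals), for the 4 genes and for each tested gene of 10 of the lists (points), with the median of each list as a bar. These medians lie between -0.13 and 0.47, while Vsig4, Cxcl13 and Cd207 stand at 3.38 to 4.12.

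Other tissue that can differ between the 2 atria was read in the same way. The 10 tested sinoatrial node markers had a median of 0.47, from -0.40 for Smoc2 to 1.11 for Cacna2d2. Cpne5 stood at 0.90 and Vsnl1 at 0.76. Cacna2d2 was higher in the Bmp10-high array of 13 of 16 animals. The 6 lymphatic endothelium markers had a median of -0.44, from -2.39 for Mmrn1 to 0.25 for Lyve1. Reln stood at -0.86 and Prox1 at -0.13. Medians were -0.13 for 13 mesothelium markers, -0.11 for 12 fibroblast markers, -0.08 for 9 adipocyte markers and -0.03 for 11 atrial myocyte markers. They were 0.09 for 10 vessel endothelium markers and -0.19 for 2 red cell genes. The part of these tissues in the split of the 4 genes was not tested.

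The genes most like each of the 4 were found by Pearson's r over the 32 arrays, which share animals by pairs. For Vsig4 they were Bmp10 (0.960), Adh6b (0.951), Itgal (0.871), Cd300ld (0.870) and A2m (0.868). For Cxcl13 they were Bmp10 (0.965), Adh6b (0.903), Lilra5 (0.888), A2m (0.880) and Itgal (0.872). Cd207 was nearest to Bmp10 (0.984), Adh6b (0.938), Itgal (0.909), A2m (0.884) and Cd300ld (0.867). Itgal is an integrin subunit of leukocytes, and A2m a protease inhibitor. These correlations mostly restate the split between the classes of arrays. Clec10a had another set, namely Reps2 (0.905), Pla2g2d (0.895), F13a1 (0.874), Slco2b1 (0.872) and Mgl2 (0.866). Among the 4 genes r was 0.967 for Vsig4 with Cxcl13, 0.971 for Vsig4 with Cd207 and 0.965 for Cxcl13 with Cd207, and Clec10a ran against all of them, from -0.736 to -0.611.

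With the mean of each genotype and class taken away, 32 residuals were left for each gene. Vsig4 and Cxcl13 still varied together (r = 0.624). For Cd207 r was 0.091 with Vsig4 and -0.035 with Cxcl13. In Bmp10-low arrays Cd207 spanned only 4.32 to 4.86 log2, close to the filter on dim genes, where signals hold background. Its low r over both classes therefore does not show that it varied apart from Vsig4 or Cxcl13 where it was bright. The residuals nearest to Vsig4 were those of Cygb (0.777), Aida (0.766) and Rab13 (0.756), and to Cxcl13 those of Aida (0.730), Timp4 (0.686) and Apod (0.665). Cd207 was nearest to B4galt3 (0.747), Elmod2 (0.709) and Prkd3 (0.694). Clec10a was nearest to Pld4 (0.892), the inhibitory Fc receptor gene Fcgr2b (0.864) and the complement gene C1qb (0.855). No p is given, since both arrays of an animal share that animal.

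The genotypes were then compared on the mean of each animal's arrays and within each class of array, which the choice of the genes did not use. P-values are limma's, adjusted by the Benjamini-Hochberg method over 15219 genes, and a gene was called at an adjusted p under 0.05. The comparisons with Ntg share the same 4 Ntg animals. On animal means 26.8% of all genes were called between Mst1 and Ntg, 4.05% between dnPI3K and Ntg, and 30.6% between dnPI3K-Mst1 and Ntg. The shares were 3.50% in dnPI3K-Mst1 against Mst1 and 21.6% in dnPI3K-Mst1 against dnPI3K. Clec10a was 1 of 4 members called between Mst1 and Ntg, and no member was called for dnPI3K or for dnPI3K-Mst1 against Ntg. Clec10a alone of the 4 was called in dnPI3K-Mst1 against Mst1 and against dnPI3K. A count of 1 in 4 is near the background where 21.6% or 26.8% of genes were called.

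Clec10a fell in Mst1 animals. Its animal means were 4.44 ± 0.21 log2 in Mst1 animals and 5.23 ± 0.15 in Ntg animals (SD, n = 4 each), a difference of -0.79 ± 0.14 (SE, limma adjusted p = 0.00024). The animal means ran from 4.24 to 4.74 in Mst1 animals and from 5.11 to 5.45 in Ntg animals. The share of all genes whose groups part in this way was not counted. Clec10a was higher in dnPI3K-Mst1 animals, at 5.11 ± 0.32, than in Mst1 animals, by 0.67 ± 0.14 (limma adjusted p = 0.011). It was lower in dnPI3K-Mst1 animals than in dnPI3K animals, at 5.65 ± 0.20, with a difference of -0.54 ± 0.14 (limma adjusted p = 0.0091). In a limma fit of all 32 arrays with the animal as a random block, these 2 calls were lost, at adjusted p of 0.073 for 0.67 and 0.079 for -0.54. That fit gives all genotypes the same split between classes, while the split of Clec10a averaged -0.37 in Mst1 and -1.75 in Ntg animals. The call against dnPI3K was also lost without the 4 animals whose arrays stood apart, at -0.47 (adjusted p = 0.066). In dnPI3K animals Clec10a differed from Ntg by 0.41 ± 0.14 and missed the threshold (limma adjusted p = 0.11). In dnPI3K-Mst1 animals it differed from Ntg by -0.12 ± 0.14 (limma adjusted p = 0.56). The order of the means was dnPI3K, Ntg, dnPI3K-Mst1, Mst1, and neither Ntg and dnPI3K-Mst1 nor dnPI3K and Ntg differed by the test.

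Within Bmp10-low arrays Clec10a averaged 4.62 ± 0.39 log2 in Mst1 animals and 6.11 ± 0.25 in Ntg animals. The difference was -1.48 ± 0.25 (SE), 2.8-fold lower, with a limma adjusted p of 0.00021. Mst1 1838 and 1840 stood under 4.48 log2 here, at 4.34 and 4.44. The fold is therefore a ratio of signal and not of transcript number. Of all genes 27.0% were called in these arrays for Mst1, 3.80% for dnPI3K and 29.8% for dnPI3K-Mst1, each set against Ntg. In Bmp10-high arrays it averaged 4.25 ± 0.08 in Mst1 animals and 4.36 ± 0.17 in Ntg animals, a difference of -0.10 ± 0.14 (limma adjusted p = 0.72). Both of these means stood under 4.48 log2, so a fall there would be hard to see. In Bmp10-high arrays the shares called were 14.8% for Mst1, 0.986% for dnPI3K and 16.6% for dnPI3K-Mst1 (against Ntg), and none of the 4 genes was among them. In the Bmp10-low arrays of dnPI3K-Mst1 animals Clec10a differed from Ntg by -0.50 ± 0.25 (limma adjusted p = 0.15), and without dnPI3K-Mst1 1647 by -0.78 (adjusted p = 0.0098).

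Whether genotype changed the size of the within-animal split was tested on the differences themselves. For Clec10a the difference between Mst1 and Ntg animals was 1.38 ± 0.35 log2 (SE) and missed the threshold (limma adjusted p = 0.062). Its Bmp10-high means stood under 4.48 log2 in both genotypes, so this value largely restates the -1.48 in Bmp10-low arrays. Without dnPI3K-Mst1 1647, whose array enters only the shared spread, the adjusted p was 0.015 for the same 1.38. Of all genes 1.02% were called in this comparison, with 0.0657% for dnPI3K and 0.887% for dnPI3K-Mst1 set against Ntg. None of the 4 genes passed in any of the 3. The nearest after Clec10a in Mst1 animals were Clec10a in dnPI3K-Mst1 animals (0.76 ± 0.35, adjusted p = 0.54) and Cxcl13 in dnPI3K-Mst1 animals (-0.81 ± 0.35, adjusted p = 0.49), both against Ntg and by limma.

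**Figure D4:**
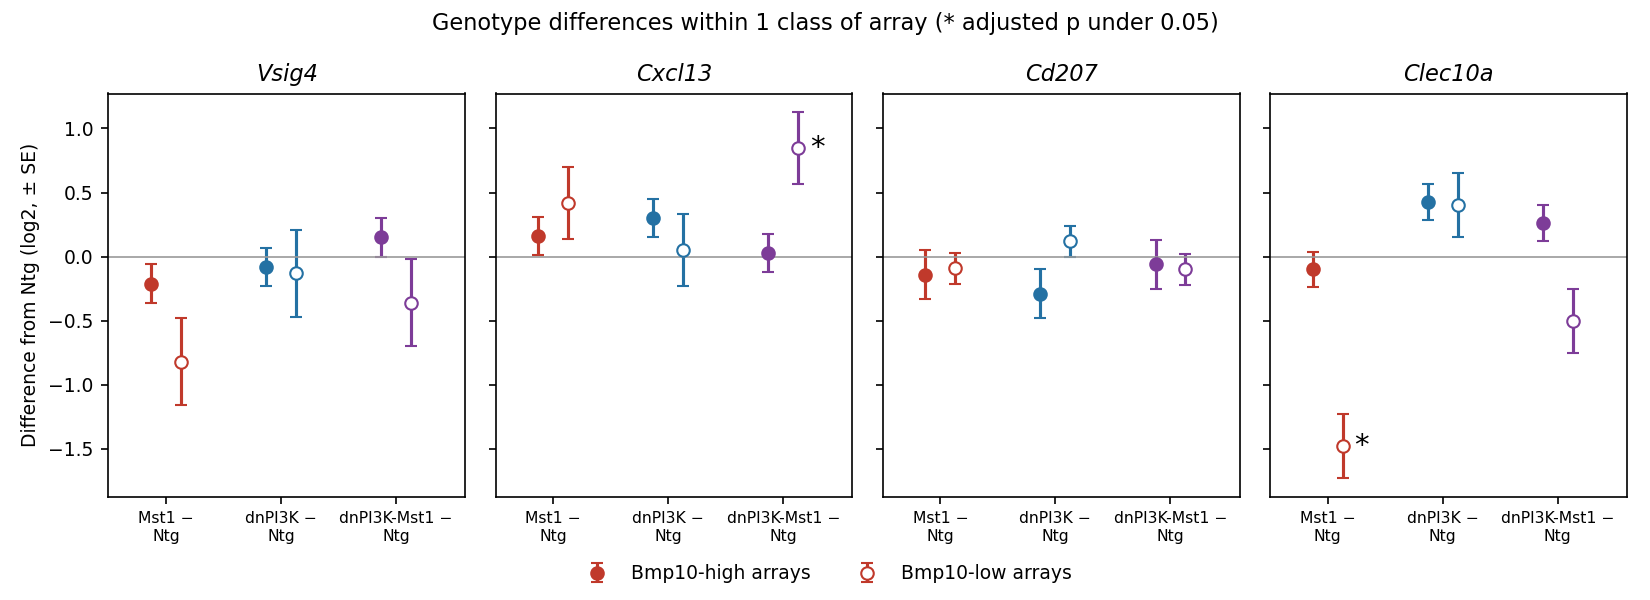
Difference from Ntg (log2, ± SE from limma, 4 animals per genotype) of each gene in Mst1, dnPI3K and dnPI3K-Mst1 animals, within Bmp10-high arrays (filled) and Bmp10-low arrays (open), with a star at an adjusted p under 0.05. The stars mark Clec10a in the Bmp10-low arrays of Mst1 animals (-1.48) and Cxcl13 in those of dnPI3K-Mst1 animals (0.85).

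Mgl2 lies at 11:70130125-70137542 beside Clec10a and encodes a closely related lectin, so probes of the pair may share signal. It averaged 5.88 ± 0.40 log2 in Mst1 animals and 6.70 ± 0.27 in Ntg animals in Bmp10-low arrays (SD, n = 4 each), a difference of -0.81 ± 0.17 (SE, limma adjusted p = 0.0018). Unlike Clec10a, it was called in Bmp10-high arrays as well, at 4.83 ± 0.11 in Mst1 animals and 5.52 ± 0.21 in Ntg animals (-0.70 ± 0.17, limma adjusted p = 0.0075). Mgl2 was lower in the Bmp10-high array of all 16 animals (-1.21). The size of that split was not called as different between Mst1 and Ntg animals (0.12 ± 0.30, limma adjusted p = 0.93).

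Beside Clec10a, several marker lists held genes that fell in the Bmp10-low arrays of Mst1 animals, where 12.2% of all genes fell and 14.8% rose. Of 15 tissue-resident macrophage markers 8 fell and 1 rose, with a median of -0.65 against 0.01 for all genes. Of 10 vessel endothelium markers 5 fell and none rose (median -0.46), and likewise 5 of 13 mesothelium markers (-0.48). Of 9 adipocyte markers 3 fell and 1 rose (-0.83). Resident markers named after their values were seen are Folr2, a folate receptor (-1.14, limma adjusted p = 1.2e-05), and Timd4 (-1.05, 5.5e-07). The mean level of the resident macrophage list was 7.41 to 7.49 log2 in Mst1 and 7.82 to 8.19 in Ntg animals. The mean levels of the vessel endothelium and adipocyte lists also parted between these genotypes, and those of the mesothelium list overlapped. The share of all genes or lists that part in this way was not counted. Of 19 general macrophage markers 1 rose and none fell, and their mean level was 6.94 to 7.63 in Mst1 and 6.89 to 7.33 in Ntg animals. Of the 28 C-type lectins 8 fell and 3 rose, and those that rose were a smaller share than the 14.8% of all genes, with Cd209f at -2.83 (2e-07) and Clec4d at 1.25 (0.017). In dnPI3K against Ntg 3 resident markers rose and none fell in these arrays, where 1.62% of all genes rose and 2.18% fell. The part of any of these cells in the fall of Clec10a was not tested.

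Cxcl13 was called once, in the Bmp10-low arrays of dnPI3K-Mst1 animals. It averaged 5.31 ± 0.70 log2 there and 4.47 ± 0.57 in Ntg animals (SD, n = 4 each), a rise of 0.85 ± 0.28 (SE), 1.8-fold, with a limma adjusted p of 0.029. The groups overlapped, with 4.52 to 6.20 in dnPI3K-Mst1 animals and 4.02 to 5.24 in Ntg animals. Of 24 other settings 6 lost the call. Without dnPI3K-Mst1 1509 the difference was 0.55 (adjusted p = 0.12), and without dnPI3K-Mst1 1650 it was 0.82 (0.06). Without Ntg 1657 it was 0.71 (0.094), and without Ntg 1834 it was 0.70 (0.097). On animal means it was 0.44 ± 0.18 and missed the threshold (limma adjusted p = 0.08), but was called without Ntg 1301 (0.60, adjusted p = 0.016) or without dnPI3K-Mst1 1647 (0.65, 0.0048). Without dnPI3K-Mst1 1647 it was also called against dnPI3K (0.47, 0.043), where all animals gave 0.27 ± 0.18 (0.34). In Mst1 against Ntg it was 0.42 ± 0.28 in the Bmp10-low arrays (0.31), and in dnPI3K against Ntg 0.05 ± 0.28 (0.96).

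In the same arrays 8 of 19 general macrophage markers rose in dnPI3K-Mst1 against Ntg animals and none fell, while 16.5% of all genes rose and 13.4% fell. The other 11 missed the threshold, among them Spi1 (0.14, limma adjusted p = 0.74) and Cd68 (0.37, 0.39). The median of the list was 0.60 against 0.02 for all genes. Fibroblast markers (9 of 12 up, 1 down, median 0.69) and lymphatic endothelium markers (4 of 6 up, none down, 0.62) moved in these arrays too. Among the macrophage markers that rose were the fractalkine receptor gene Cx3cr1 (1.03 ± 0.25, limma adjusted p = 0.0037) and Ptprc, which encodes CD45 (1.02 ± 0.28, 0.0086). The mean level of the macrophage list was 7.59, 8.55, 7.35 and 7.23 log2 in dnPI3K-Mst1 1509, 1647, 1649 and 1650, and 6.89 to 7.33 in Ntg animals. The highest of these, 1647, had the lowest Cxcl13 of its genotype, 4.52, and the highest Clec10a, 6.44. Of 21 other chemokines 2 rose and 5 fell, near the 29.8% of all genes called here, among them Cx3cl1 (1.24) and the eosinophil chemokine Ccl11 (-1.94). The part of any of these cells in the rise of Cxcl13 was not tested.

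Vsig4 was not called in any comparison. It differed most between Mst1 and Ntg animals, by -0.51 ± 0.22 on animal means (limma adjusted p = 0.089), with 6.97 to 7.76 log2 in Mst1 animals and 7.17 to 8.30 in Ntg animals. It was called without Mst1 1466 (-0.70, adjusted p = 0.014), without Ntg 1657 (-0.69, 0.023) or without Ntg 1834 (-0.64, 0.046). In Bmp10-low arrays it averaged 5.03 ± 0.56 in Mst1 animals and 5.85 ± 0.84 in Ntg animals, a difference of -0.82 ± 0.34 (0.091). That one was called without Mst1 1466 (-1.10, 0.023) or without Ntg 1657 (-1.12, 0.02). In Bmp10-high arrays it averaged 9.35 ± 0.24 in Mst1 and 9.56 ± 0.28 in Ntg animals (-0.21 ± 0.15, 0.43). Against Mst1 the dnPI3K-Mst1 animals had 0.41 ± 0.22 more on animal means (0.35), and dnPI3K animals differed from Ntg by -0.11 ± 0.22 (0.86).

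Cd207 was not called in any comparison, under any setting run. On animal means it differed from Ntg by -0.11 ± 0.10 for Mst1, -0.09 ± 0.10 for dnPI3K and -0.08 ± 0.10 for dnPI3K-Mst1 (SE, limma adjusted p of 0.46, 0.73 and 0.61). In Bmp10-high arrays, where the gene was bright, the differences were -0.14 ± 0.19 for Mst1, -0.29 ± 0.19 for dnPI3K and -0.06 ± 0.19 for dnPI3K-Mst1. Of the 15 Langerhans and dendritic markers 1 rose and 2 fell on animal means in Mst1 against Ntg, a smaller share than the 26.8% of all genes called.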

How the data were processed

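Per the labels' protocols, 100 ng of total RNA per atrium was hybridised to Affymetrix Mouse Gene 1.0 ST arrays. The deposited values are log2 probe set signals, made per the submitters' processing notes with Affymetrix Expression Console and PLIER. Versions, background correction and scaling are not given in the sources used here. The log base was taken from the values, 1.16 to 14.08.

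Of 35512 probe sets, 21789 carried 1 symbol in the platform's annotation, 1621 several and 12102 none. Only the first were used, with the brightest of a gene's probe sets (999 genes had several). Genes under 4.48 log2 on average, the 30th percentile, were left out, which left 15219. No arrays were duplicates (highest pair r 0.9903), and no scaling was added.

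Genotypes were compared with limma 3.58.1 (lmFit, eBayes with trend; R 4.3.3) over 4 genotypes, on animal means, on each Bmp10 class and on within-animal differences, two-sided. Both arrays of an animal carry its number in the labels, which pairs them; their deviations from group means correlated at a median of 0.22 (-0.01 to 0.44), above 0.1 in 12 of 16 animals. Tables were made with Python 3.11.15 and pandas 2.3.3. The labels do not say whether animals were littermates, and the p-values rest on the spread among these 16 mice. The fits were also run on simulated data with independent normal noise, and the outcome is not given here. Correlated genes and arrays that stand apart were not part of that simulation.

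The members and lists were chosen with earlier results of these data known. Besides the members, the text takes its names from the 5 genes most like each (3 for residuals), up to 3 members of each list with the largest within-animal difference, and up to 2 called in dnPI3K-Mst1 against Ntg, plus others named as chosen later or as defining markers. Alternatives tried were all probe sets of a gene, no filter, median and quantile scaling, array weights, an animal block, 2 groups only, no trend, Bmp10 limits of 8 and 10 log2, the labelled sides, and leaving out each animal or the 4 whose arrays stood apart.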

Additional observations from a re-analysis of the deposited data

Results flagged for a closer look

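Over 48 groups of 4 animals, 3 values stood far from the other animals of their group by Dixon's test, which by chance marks about 1 group in 20, so a count of 3 is near chance. Vsig4 was highest in the Bmp10-low array of Mst1 1466, at 5.86 log2, where the other Mst1 animals had 4.69 to 4.86. The within-animal difference of Clec10a was lowest in the same animal, at -0.91 log2, where the other Mst1 animals had -0.23 to -0.14. Clec10a was lowest in the Bmp10-high array of Mst1 1838, at 4.13 log2, where the others had 4.28 to 4.30. The Bmp10-high array of Mst1 1466 was also among the 4 arrays with a mean correlation under 0.97. It does not enter the Vsig4 value, which is from the Bmp10-low array. For Clec10a that Bmp10-high array read 4.28 log2, within the 4.13 to 4.30 of the other Mst1 animals. The Bmp10-low array of Mst1 1466 read 5.19, where the others had 4.34 to 4.53. The cause of these values was not tested.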

How the results depend on the processing

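The within-animal differences kept their sign and moved by less than 1 SD under every alternative run except the labelled sides. Using all probe sets could not move them, as each gene had 1 probe set. Bmp10 limits of 8 and 10 log2 could not either, as no array lay between 6.64 and 11.42 log2. Leaving out 1 of 16 animals can move a mean only a little. Leaving out 1 animal gave 3.95 to 4.05 log2 for Vsig4, 4.08 to 4.20 for Cxcl13, 3.34 to 3.43 for Cd207 and -1.28 to -1.14 for Clec10a. Right minus left by the labels reversed them, to -2.63, -2.59, -2.02 and 0.72 in that order. In the genotype comparisons 45 of 56 member results kept their side of the threshold under every alternative, 11 did not and 0 changed the sign of a call. The fall of Clec10a in Mst1 animals stayed called in all alternatives, from -0.90 to -0.72 on animal means and from -1.69 to -1.38 in Bmp10-low arrays.

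With array weights 7 more were called: Vsig4 in Mst1 against Ntg (-0.61 on animal means, -1.08 in Bmp10-low arrays) and in dnPI3K-Mst1 against Mst1 (0.58), Cxcl13 in dnPI3K-Mst1 against Ntg (0.57), and Clec10a for dnPI3K against Ntg (0.45), for the Bmp10-low arrays of dnPI3K-Mst1 (-0.67) and in the Mst1 difference of the split (1.54). With only the 2 groups compared, Clec10a was called in dnPI3K against Ntg (0.41) and in the split (1.38), and Cxcl13 in Bmp10-low arrays of dnPI3K-Mst1 was lost (0.85, adjusted p = 0.092). Without a trend the split of Clec10a was called (1.38). Without the 4 animals whose arrays stood apart, Clec10a in dnPI3K-Mst1 against dnPI3K (-0.47) and Cxcl13 in Bmp10-low arrays (0.87) were lost. The fit with the animal as a random block (within-animal correlation 0.15) lost Clec10a in dnPI3K-Mst1 against Mst1 (0.67) and dnPI3K (-0.54) and changed no other member's call. The cause was not tested for any of these.

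Leaving out 1 animal changed calls for Vsig4 in Mst1 against Ntg (-0.70 to -0.31 on animal means, -1.12 to -0.54 in Bmp10-low arrays), Cxcl13 in dnPI3K-Mst1 against Ntg (0.25 to 0.65, and 0.55 to 1.11 in Bmp10-low arrays) and against dnPI3K (0.08 to 0.47), and Clec10a in Bmp10-low arrays of dnPI3K-Mst1 (-0.78 to -0.33) and in the Mst1 split (1.30 to 1.56).

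Counts of called genes that moved by over 1.5 times were, on animal means, 616 in dnPI3K against Ntg (945 with weights, 278 without the 4 animals, 378 to 1013 without 1 animal) and 532 in dnPI3K-Mst1 against Mst1 (1686, 903 and 249 to 765, and 334 with 2 groups only). In Bmp10-high arrays weights gave 4159 for 2249 in Mst1, 278 for 150 in dnPI3K (90 to 310 without 1 animal) and 4155 for 2532 in dnPI3K-Mst1. In Bmp10-low arrays dnPI3K had 578, or 154 without the 4 animals (354 to 869 without 1). For the split, weights gave 717 for 155 in Mst1, 17 for 10 in dnPI3K (2 with 2 groups only, 2 to 30 without 1 animal) and 424 for 135 in dnPI3K-Mst1 (81 to 173). Dim signals limit Clec10a in Bmp10-high arrays and in the Bmp10-low arrays of Mst1 animals, and Cd207 and Cxcl13 in Bmp10-low arrays.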

Other observations

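Beside Bmp10 and the 4 genes, the largest mean within-animal differences (Bmp10-high minus Bmp10-low) were those of A2m (2.23 log2), Adh6b (2.16), Hamp (2.08), which encodes the iron hormone hepcidin, and Igf2 (1.84). Msr1, a scavenger receptor of macrophages, was higher by 1.10. At the other end were Mmrn1 (-2.39), Mapk10 (-1.55), Pi16 (-1.44), Prg4 (-1.44) and Timp4 (-1.37), followed by Uts2b (-1.29) and, beside Clec10a and Mgl2, the secreted phospholipase gene Pla2g2d (-1.21). These genes were picked by size after their values were seen, and no test was made.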
